A study of Mus musculus with 12 samples.

Results

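The genes described here are 46 mouse genes whose products copy DNA or supply its building blocks. They were chosen by name, and a probe set was taken as a member when the platform annotation gave it 1 of these symbols and no other. In all, 102 probe sets met this rule, 81 of them on array A and the other 21 on array B, and 96 were bright enough to test. Each gene was then represented by 1 probe set, which left 46 of the 16461 genes tested, 43 of them on array A and 3 (Gins2, Gins3 and Tyms) on array B. The genes lie on 14 chromosomes of the RefSeq annotation, with 8 of them on chromosome 5.

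Replication begins where the origin recognition complex, Cdc6 and Cdt1 load the ring-shaped MCM helicase onto DNA before S phase. Cdc45 and the GINS complex switch the helicase on, primase and the DNA polymerases copy the opened strands on a sliding clamp of PCNA, and the nucleases and ligase join the fragments. Mouse embryonic stem cells are known for rapid cycling with a short G1 phase, and many of these genes are known targets of E2F transcription factors.

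R1 is a mouse embryonic stem cell line. The RNAs D1 to D3 came from R1 cells labelled as differentiated into embryoid bodies, aggregates in which stem cells begin to form other cell types, and the RNAs U1 to U3 came from undifferentiated R1 cells. Each RNA was hybridised once to MOE430A (array A) and once to MOE430B (array B), 12 Affymetrix arrays in all. Values are log2 signals, scaled alike on every array, and n = 3 RNAs per group throughout. No genotype, transgene or added agent is named for either group. The growth protocol is the same for both, D-MEM with serum in bacterial Petri dishes for 5 days, so how the cultures were handled differently is not recorded there. The undifferentiated cells were judged 95% pure. Separate cultures are not stated for the RNAs within a group, and the p-values may therefore rest on technical spread alone.

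Some arrays stood apart. D1 on array A had the lowest median correlation with the other arrays (0.843, against 0.881 to 0.891) and the largest actin 3′ minus 5′ difference (0.70 on the log2 scale, against 0.13 to 0.31). U2 on array B had a median correlation of 0.637, against 0.762 to 0.811 for the others. Fluidics station and group cannot be told apart on array A. Among the genes that mark cell state, 3 of 12 stem cell genes fell and 0 rose, among them Lefty1, a secreted Nodal antagonist (log2 difference -2.30). Pou5f1, Nanog and Sox2, the core pluripotency factors, differed by -0.27, -0.56 and -0.03, with limma adjusted p of 0.352, 0.430 and 0.961. Of the 10 extraembryonic endoderm genes tested, 8 rose and 0 fell, led by Ttr (4.24), a carrier of thyroid hormone. Of 9 genes of fibroblast feeder cells, 4 fell and 0 rose, led by S100a4 (-3.83). Of 7 mesoderm and neural genes, 0 passed limma's adjusted test, and 0 had an unadjusted p under 0.05. Per RNA, the mean of the endoderm genes was 1.85 to 1.99 above the undifferentiated mean in D1 to D3 and between -0.18 and 0.11 in U1 to U3. The stem cell mean was -1.56, -0.83 and -0.53 in D1, D2 and D3, and between -0.12 and 0.07 in U1 to U3. The feeder mean was -1.85 to -0.97 in D1 to D3 and between -0.18 and 0.13 in U1 to U3. At the floor of the scale were Ttr in U2, Apoa1 in U3, Bgn in D3 and Col3a1 in D2, and Tal1 in D2 and U3. The stem cell, endoderm and feeder sets moved with the groups, and their part in the replication values was not tested. Within them, Sparc (-0.41) of the endoderm genes and Dcn (0.74) and Lum (0.84) of the feeder genes went the other way. In bulk RNA, fewer cells of a type and less RNA per cell cannot be told apart.

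None of the replication genes passed the test between differentiated and undifferentiated cells. Of the 46 genes, 0 had a limma adjusted p under 0.05, in an experiment where 2.08% of all genes tested did (343 of 16461, with 152 or 0.923% higher and 191 or 1.16% lower). By probe set, the count was 0 of 76 on array A, where 2.87% of all probe sets passed, and 0 of 20 on array B, where 0.0197% passed. At an unadjusted limma p under 0.05 there were 12 of the 76 (15.8%, as among all array A probe sets, 15.8%) and 0 of the 20 (5.24% of all array B probe sets). Among the 46 genes, 7 (15.2%) had an unadjusted limma p under 0.05, against 12.6% of all genes. They were Mcm7, Pcna, Rfc3, Pold2 and Rpa3, which were higher in differentiated cells (5 of 46, against 5.95% of all genes), and Orc2 and Rfc5, which were lower (2 of 46, against 6.67%). The lowest adjusted p among the 46 was 0.119, for Pold2. In 9 genes (19.6%) the 3 differentiated arrays did not overlap the 3 undifferentiated arrays, against 18.4% of all genes. On array A alone this was 20.9%, against 22.2% of all genes there. Of the 9, 7 were higher (9.16% of all genes) and 2 lower (9.25%).

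On the probe sets that represent the genes, the differences were also small and most intervals were narrow. Like the p-values, these intervals may rest on technical spread alone. Log2 differences, differentiated minus undifferentiated, ran from -0.90 for Tyms to 0.59 for Rfc3, with a median of 0.12 over the 46 genes and 0.01 over all genes. The difference was above 0 for 28 genes and below 0 for 18, that is above 0 in 60.9% of them and in 50.9% of all genes. In 36 of 46 genes (78.3%) the 95% confidence interval lay wholly inside a 2-fold change either way, against 38.3% of all genes. On array A alone this held for 36 of 43 (83.7%), against 48.7% of the genes there. By probe set it held for 57 of 76 on array A (75%, against 44.2% of all probe sets there). On array B it held for 4 of 20 (20%, against 14.2%). The 10 genes whose intervals reached past 2-fold were Orc2, Orc5, Cdc6, Mcm2, Gins2, Gins3, Rfc3, Rfc4, Prim2 and Tyms. A 2-fold difference in at least 1 direction lay inside the interval of each of these 10. The replication genes were brighter than most, with a median log2 signal of 10.22 on array A against 8.57 for all genes there, and their median standard error was 0.18 against 0.30.

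**Figure D1:**
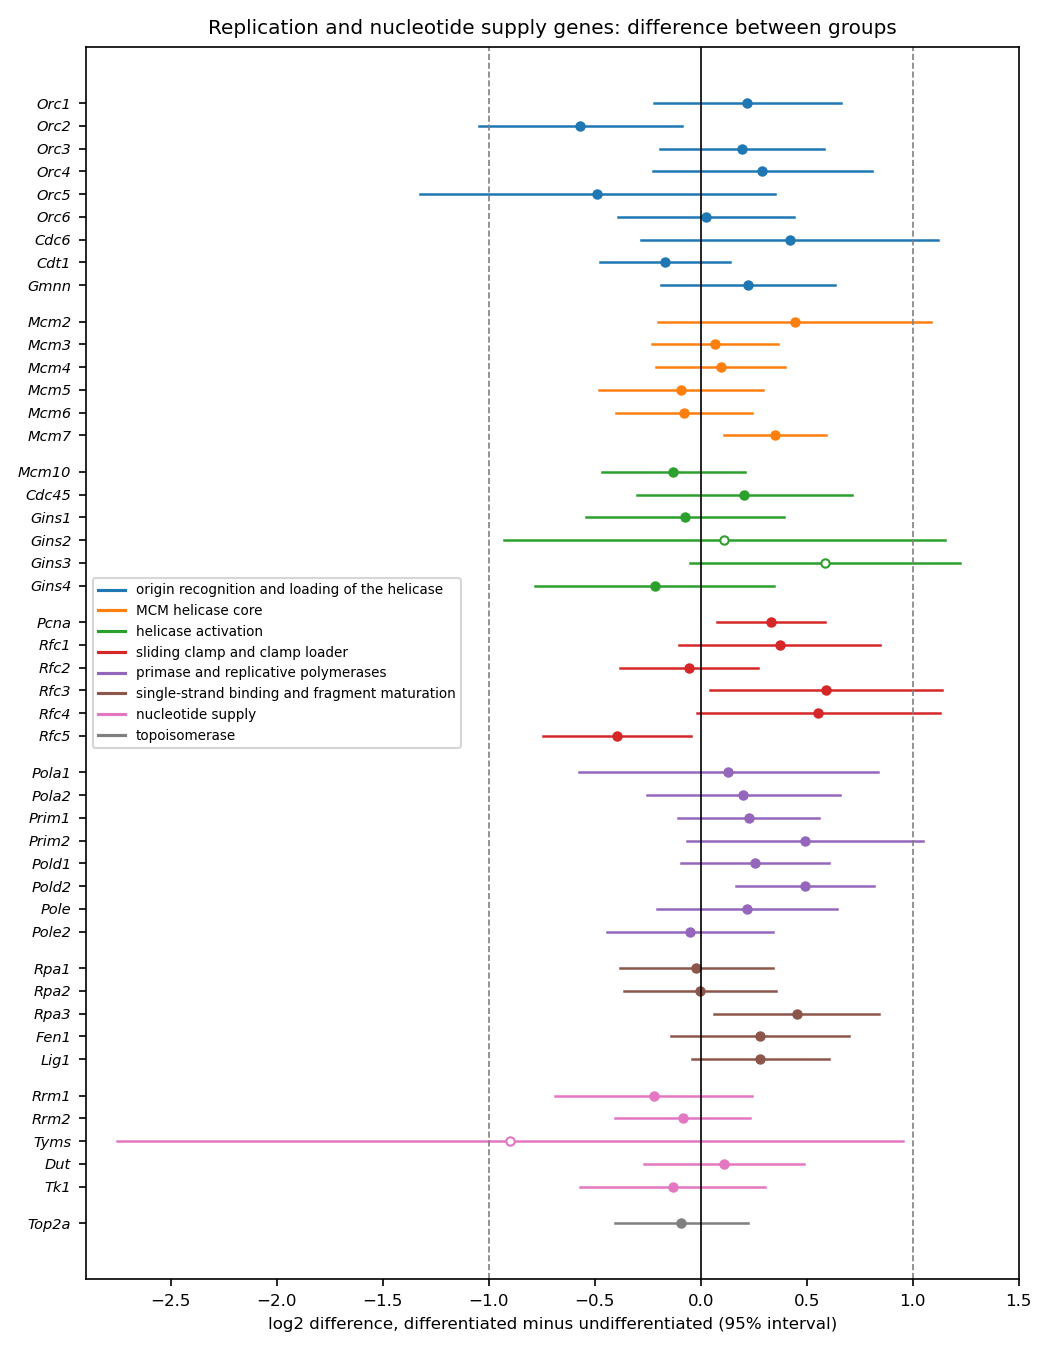
Log2 difference (differentiated minus undifferentiated) of each of the 46 genes with its 95% limma interval, coloured by role; open points are the 3 genes measured on array B and dashed lines mark 2-fold. Of the 46 intervals, 36 lie between the dashed lines, and the interval of Tyms is the widest, from -2.75 to 0.96.

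Since these genes are often described as E2F targets, the promoters were searched for the letters of 1 strict form of the E2F site, TTTCGCGC or TTTGGCGC on either strand. A RefSeq promoter (GRCm38.p6, from 250 bases before to 50 bases after the start) was found for 38 of the 46 genes. Of these, 10 of 38 (26.3%) held a match, against 251 of 27025 genes with a promoter (0.929%). A gene counted when any of its promoters matched, and the 38 genes had 46 promoters. The genes compared with were not matched for base composition or for number of promoters. A match lay before the start in 5 of the 38, against 0.759% of all genes with a promoter. In the other 5 of the 10 no match lay wholly before it. The genes were Cdt1, Lig1, Mcm3, Mcm5, Mcm6, Mcm7, Orc1, Pola1, Pole2 and Rfc3. The 250 bases before the start follow for 4 of the genes, chosen to show 2 helicase subunits whose matches overlap each other, an origin protein, and Rfc3, the gene with the highest difference. Capitals mark the matched letters, and each run is written 5′ to 3′ on the strand of the gene. Mcm5 is from chr8:75109259-75109508 on the plus strand, Mcm6 from chr1:128359706-128359955 on the minus strand, Orc1 from chr4:108579204-108579453 on the plus strand and Rfc3 from chr5:151651209-151651458 on the minus strand.
Mcm5: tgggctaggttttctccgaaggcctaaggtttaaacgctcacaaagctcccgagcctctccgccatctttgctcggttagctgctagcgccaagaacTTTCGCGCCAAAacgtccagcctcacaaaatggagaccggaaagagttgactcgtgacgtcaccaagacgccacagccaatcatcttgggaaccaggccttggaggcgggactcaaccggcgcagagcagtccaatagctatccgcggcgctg
Mcm6: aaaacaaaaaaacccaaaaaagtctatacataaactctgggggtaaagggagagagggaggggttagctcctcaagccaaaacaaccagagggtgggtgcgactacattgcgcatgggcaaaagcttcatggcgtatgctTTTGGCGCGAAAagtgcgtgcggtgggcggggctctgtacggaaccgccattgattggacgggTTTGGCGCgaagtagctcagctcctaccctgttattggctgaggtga
Orc1: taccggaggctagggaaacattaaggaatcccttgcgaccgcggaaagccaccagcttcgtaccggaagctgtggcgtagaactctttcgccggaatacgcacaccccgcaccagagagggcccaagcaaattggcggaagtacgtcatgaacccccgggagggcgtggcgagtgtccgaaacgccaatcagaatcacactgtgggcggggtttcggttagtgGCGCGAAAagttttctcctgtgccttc
Rfc3: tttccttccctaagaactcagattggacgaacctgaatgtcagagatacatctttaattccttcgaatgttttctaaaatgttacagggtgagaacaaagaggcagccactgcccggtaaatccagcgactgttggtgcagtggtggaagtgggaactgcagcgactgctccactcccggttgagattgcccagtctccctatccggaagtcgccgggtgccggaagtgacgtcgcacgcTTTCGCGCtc
In Mcm5 and Mcm6 a forward and a reverse match share letters, and Mcm6 holds a further separate match. In Rfc3 the match ends 3 bases before the start.

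The genes with these letters had differences on both sides of 0. The 10 genes with a match had log2 differences from -0.17 to 0.59 with a median of 0.10, 6 above and 4 below 0. The 28 genes with a promoter but no match had differences from -0.90 to 0.59 with a median of 0.20, 17 above and 11 below 0. The promoters were also searched for other short motifs, again on both strands. The CCAAT box (ATTGG) was in 24 of 38 (63.2%, against 41.1% of all genes), the GC box (GGGCGG) in 29 (76.3%, against 38.2%) and the CHR element of cell cycle genes (TTTGAA) in 6 (15.8%, against 20.2%). A match is only a description of letters in this window and does not show that a factor binds.

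Origin recognition and loading or restraint of the helicase fall to 9 of the genes, and their median log2 difference was 0.19, with 6 above 0 and 3 below. Orc2, a core subunit of the origin recognition complex, had log2 signals of 9.22, 9.85 and 9.89 in D1 to D3 and of 10.16, 10.02 and 10.48 in U1 to U3. All differentiated arrays lay below all undifferentiated ones, and D1 was the lowest. The difference was -0.57 ± 0.22 (SE, 95% interval -1.05 to -0.09, 0.675-fold), with a limma adjusted p of 0.224. Without D1 the difference was -0.35. The second brightest Orc2 probe set gave 0.02 ± 0.27, and the third gave -0.47 ± 0.32. Orc6, the smallest subunit of the complex, gave 9.69, 9.49 and 9.63 against 9.39, 9.50 and 9.84, and here the groups overlapped, with a difference of 0.03 ± 0.19. Orc1, the subunit that helps bring the complex to origins in G1, whose promoter is shown above, differed by 0.22 ± 0.20. Its array B probe set gave -0.64 ± 0.37, with overlapping groups. Orc5, an ATP-binding subunit, gave 8.14, 9.31 and 9.96 against 9.36, 9.68 and 9.83, so that D1 alone lay far below the rest, and its interval ran from -1.32 to 0.35. Cdc6, the loading ATPase, had its low array on the other side, with 7.89 in U1 against 8.74 to 9.24 in the other 5 arrays, and a difference of 0.42 ± 0.32. Cdt1, which carries the helicase to origins, and geminin (Gmnn), which inhibits Cdt1, differed by -0.17 ± 0.14 and 0.22 ± 0.19, and both intervals included 0.

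The 6 subunits of the MCM helicase had a median difference of 0.08, with 4 above 0. Mcm7 was the closest to the threshold, with 13.26, 13.21 and 13.24 in D1 to D3 and 12.93, 12.89 and 12.84 in U1 to U3. Its groups did not overlap, and the difference was 0.35 ± 0.11 (1.27-fold, limma adjusted p = 0.132). Mcm2 had the largest difference of the 6 and a wide spread, with 11.88, 11.66 and 12.40 against 12.24, 11.45 and 10.92. U1 was higher than D1 and D2, the groups overlapped, and the difference was 0.44 ± 0.29 (interval -0.20 to 1.09, adjusted p = 0.531). With lot or station as a block, which leaves U1 as the comparison, the difference of Mcm2 was -0.26. It was 0.80 without U1, 0.13 without U3 and 0.23 without D3. Mcm3, on its brightest probe set, was among the steadiest of the 46. It gave 11.04, 11.19 and 11.20 against 11.17, 10.91 and 11.14, with overlapping groups and a difference of 0.07 ± 0.13. Mcm4, Mcm5 and Mcm6 differed by 0.09 ± 0.14, -0.09 ± 0.17 and -0.08 ± 0.14, each with an interval inside 2-fold. Mcm5 and Mcm6 are the genes whose promoters hold overlapping E2F letters.

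Of the 6 genes that activate the helicase, 3 were above 0 and 3 below, with a median of 0.02. Gins3, a subunit of the GINS complex measured on array B, gave 10.70, 11.32 and 10.95 in D1 to D3 against 10.75, 10.05 and 10.42 in U1 to U3. The groups touched only through U1, which lay just above D1. The difference was 0.59 ± 0.28 (interval -0.05 to 1.22, limma adjusted p = 0.841), and it was 0.10 with the second probe set and 0.24 with the lot or station block. Gins1, another subunit, gave 9.0, 9.20 and 9.29 against 9.50, 9.01 and 9.20, fully overlapping, with a difference of -0.07 ± 0.21. Gins2 on array B was less well measured, at 0.11 ± 0.46, and D1 (8.75) and U1 (9.09) were its low arrays. Gins4, Cdc45 and Mcm10, which join the helicase at the origin, differed by -0.22 ± 0.26, 0.21 ± 0.23 and -0.13 ± 0.15.

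The clamp and its loader held the highest median of any role, 0.35, with 4 of 6 above 0. Pcna, the sliding clamp that tethers the polymerases, gave 13.23, 13.40 and 13.40 in D1 to D3 and 13.04, 12.93 and 13.06 in U1 to U3. All differentiated arrays were higher, and the difference was 0.33 ± 0.12 (1.26-fold, interval 0.08 to 0.59, limma adjusted p = 0.182). The subunits of replication factor C, which opens the clamp and loads it, did not share a direction. Rfc3 had 9.47, 8.82 and 9.47 against 8.84, 8.51 and 8.64, where D2 lay just under U1, and its difference was 0.59 ± 0.25 (interval 0.04 to 1.14, adjusted p = 0.276). Its second probe set gave 0.13. Rfc5 was on the other side, with 10.28, 10.60 and 10.79 against 11.01, 10.95 and 10.89, and its groups did not overlap (difference -0.39 ± 0.16, adjusted p = 0.248). Rfc2 gave 10.57, 10.88 and 10.71 against 10.94, 10.72 and 10.67, with overlapping groups and a difference of -0.05 ± 0.15. Rfc1, the large subunit, and Rfc4 differed by 0.37 ± 0.21 and 0.56 ± 0.26.

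Among primase and the replicative polymerases, 7 of 8 genes were above 0, with a median of 0.22. Pold2, an accessory subunit of polymerase delta, which copies mainly the lagging strand, gave 10.66, 10.48 and 10.50 in D1 to D3 and 10.17, 10.03 and 9.95 in U1 to U3. The groups were clearly separate, and the difference was 0.49 ± 0.15 (1.41-fold, interval 0.17 to 0.82, limma adjusted p = 0.119). Prim2, the large primase subunit, had an equal difference with more spread, 0.49 ± 0.25, with D3 (8.83) just above U3 (8.79). Pole2, a subunit of the leading-strand polymerase epsilon, gave 9.86, 9.63 and 9.69 against 9.95, 9.56 and 9.82, overlapping and differing by -0.05 ± 0.18. The catalytic subunits Pola1, Pold1 and Pole, which carry the polymerase activity, differed by 0.13 ± 0.32, 0.26 ± 0.16 and 0.22 ± 0.19. A second Pola1 probe set, on array B, went the other way, at -1.47 ± 0.68 (limma adjusted p = 0.841), and its groups did not overlap. Pola2, which partners Pola1, and Prim1, the catalytic primase subunit, differed by 0.20 ± 0.21 and 0.23 ± 0.15.

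The 5 genes of single-strand binding and fragment maturation had a median of 0.28, and all 5 intervals lay inside 2-fold. Rpa3, the small subunit of the single-strand binding protein RPA, gave 9.99, 9.81 and 9.80 in D1 to D3 and 9.57, 9.24 and 9.42 in U1 to U3. Its groups did not overlap, with a difference of 0.45 ± 0.18 (1.37-fold, limma adjusted p = 0.236), and 0.29 with the lot or station block. Rpa2, its middle subunit, gave 9.68, 9.84 and 9.93 against 9.74, 9.88 and 9.84, the narrowest spread over the 6 arrays of any of the 46 genes (0.242). The 3 subunits of RPA thus gave separate groups for Rpa3 only, with Rpa1 at -0.02 ± 0.16 and Rpa2 at -0.00 ± 0.16. Whether the subunits differ from each other was not tested. Fen1, the flap endonuclease, and Lig1, the ligase that seals the fragments, both differed by 0.28, with standard errors of 0.19 and 0.15.

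Of the 5 nucleotide supply genes, each on its representing probe set, 0 passed limma's adjusted test and 0 had an unadjusted p under 0.05. The median was -0.13 with 4 below 0, or -0.11 with 3 of 4 below 0 when Tyms, close to the floor, was left out. Rrm2, the subunit that limits ribonucleotide reductase in S phase, gave 11.57, 11.69 and 12.04 in D1 to D3 and 11.95, 11.81 and 11.80 in U1 to U3. The groups overlapped, and the difference was -0.09 ± 0.14 (interval -0.40 to 0.23, limma adjusted p = 0.845). Rrm1, the large subunit, and Dut, which removes dUTP, differed by -0.22 ± 0.21 and 0.11 ± 0.17, and a second Rrm1 probe set gave 0.42 ± 0.15. Tk1, the S phase thymidine kinase, gave 9.33, 9.75 and 9.65 against 9.98, 9.57 and 9.58, overlapping, with a difference of -0.13 ± 0.20. Tyms, thymidylate synthase, was the least certain of all 46, with 7.43, 5.70 and 5.57 against 5.53, 7.85 and 8.01 on array B. D1, U2 and U3 were high and the other arrays lay close to the floor of 5, so the difference of -0.90 ± 0.83 (interval -2.75 to 0.96) gives no usable direction, and it was 0.71 with the lot or station block. A brighter array A probe set named for both Tyms and Tyms-ps, and so not a member, gave 10.30, 10.66 and 10.31 against 10.25, 10.15 and 10.36, again with overlapping groups. Top2a, the topoisomerase that untangles replicated chromosomes, gave 12.04, 11.98 and 11.93 against 12.34, 12.01 and 11.86, and its difference was -0.09 ± 0.14 (interval -0.40 to 0.22).

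**Figure D2:**
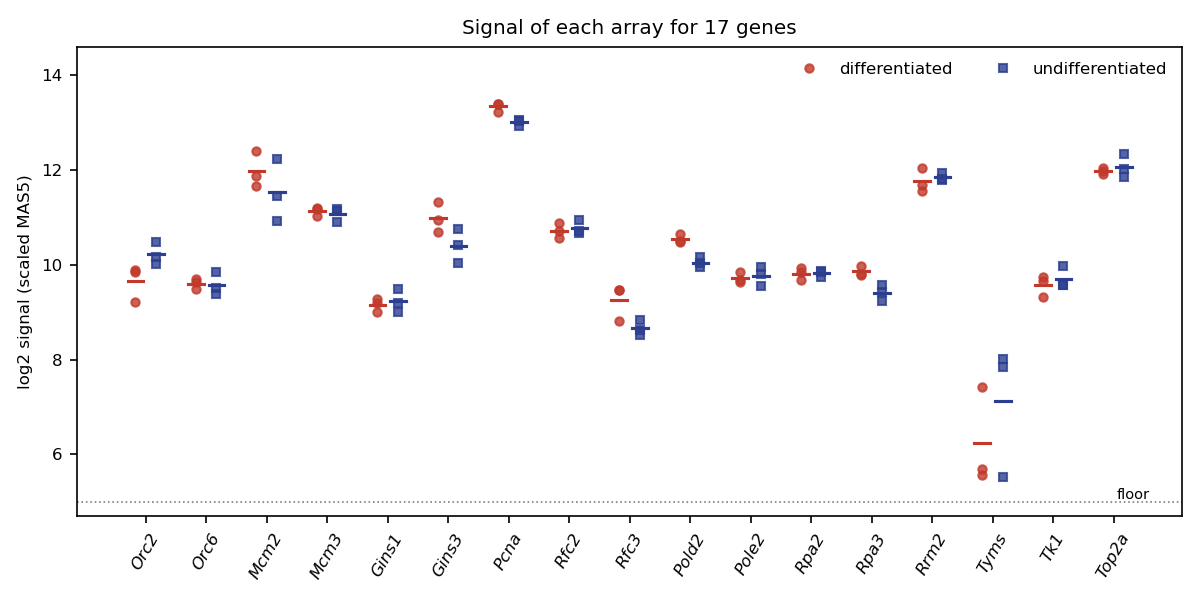
Log2 signal of each array (points) and group mean (bars) for the 17 genes named by rule, differentiated in red circles and undifferentiated in blue squares; the dotted line is the floor at 5. Pold2, Pcna, Rpa3 and Orc2 show separate groups, while Tyms spans 5.53 to 8.01.

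The lean of the list towards higher values did not come evenly from the RNAs. Over the 43 genes on array A, D1 averaged 0.01 above the undifferentiated mean, while D2 averaged 0.15 and D3 averaged 0.16. U1 averaged 0.08 and both U2 and U3 -0.04, so U1 lay above D1. Over all genes on array A the same means were 0.07, 0.01 and -0.09 in D1 to D3. D1 was the lowest of the 6 arrays for 13 of the 43 genes (30.2%, against 22.0% of all genes there) and the highest for 10 (23.3%, against 29.4%). U3 was also the lowest for 13, and D3 and U1 were each the highest for 10. Without D1, 36 of 46 genes (78.3%) were above 0, against 50% of all genes, and the median was 0.16. In that fit 0 of the 46 passed limma's adjusted test, against 326 of 16327 genes, and 7 had an unadjusted p under 0.05, against 12.1% of all genes. Without U1, 33 of 46 (71.7%) were above 0, against 50.8%. On array A, a single lot held all differentiated RNAs but only U1 of the others. Within it the 43 genes split evenly, 22 above and 21 below 0, with a median of 0.04 (all genes -0.05).

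By role, the clamp and loader genes averaged 0.18 to 0.27 in D1 to D3 and -0.08 to 0.15 in U1 to U3. The polymerase and primase genes averaged 0.17 to 0.30 against -0.06 to 0.12. In both lists U1 was the undifferentiated RNA closest to the differentiated ones. The nucleotide supply genes averaged -0.29 to -0.19 in D1 to D3, below U1 at -0.17, U2 at 0.07 and U3 at 0.09. Tyms lowered the means of D2, D3 and U1 and raised those of D1, U2 and U3. Without Tyms, the 4 other genes averaged -0.32, -0.01 and 0.08 in D1 to D3 and 0.19, -0.09 and -0.10 in U1 to U3, so the groups overlapped and U1 was the highest. The helicase activation genes were the most divided within a group, at -0.27 in D1 and 0.34 in D2.

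**Figure D3:**
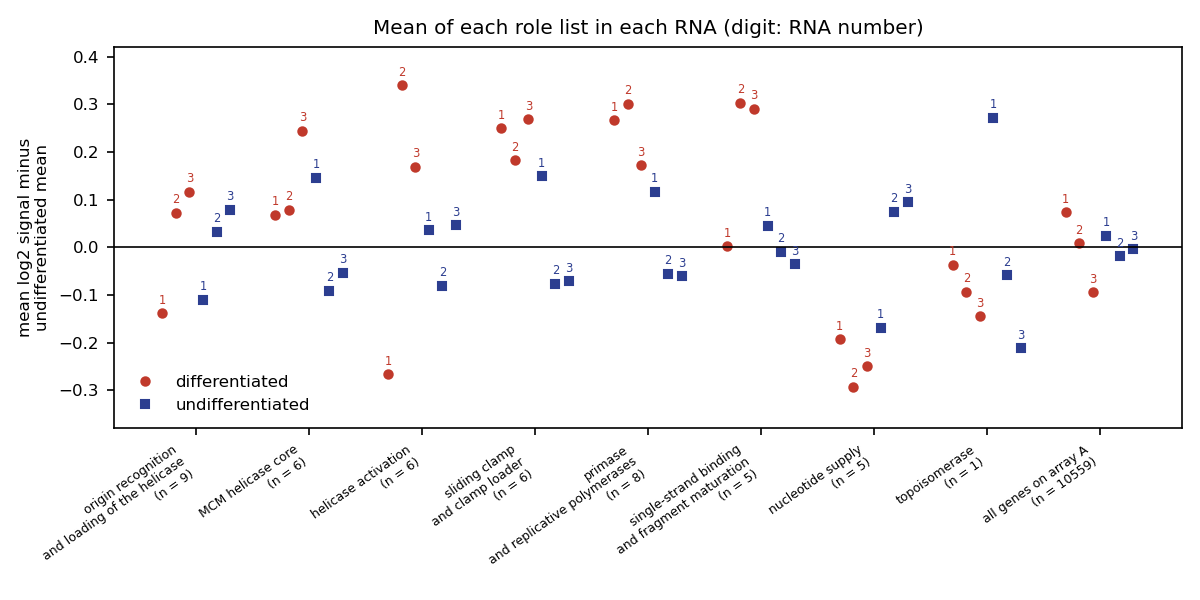
Mean log2 signal of each role list in each RNA, relative to the undifferentiated mean, with the RNA number beside each point and all genes on array A at the right. In the clamp and polymerase lists the differentiated points lie above U1, the highest undifferentiated point. The order of the nucleotide supply points depends on Tyms. Without it the groups overlap, with D1 lowest (-0.32) and U1 highest (0.19). D2 and D3 (-0.01 and 0.08) then lie above U2 and U3 (-0.09 and -0.10).

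Different probe sets for the same gene did not always give the same answer. Of 33 genes with more than 1 tested probe set, all probe sets had the same sign in 19. Over both arrays, the highest and the lowest difference lay furthest apart for Rfc2 (2.11) and Pola1 (1.60). The array B probe sets of Rfc2 gave 0.88 ± 0.51 and -1.23 ± 1.10. On array A, 13 of 23 such genes had the same sign throughout, and the median distance between the highest and the lowest difference of a gene was 0.31. The widest was 1.01, for Mcm6. Its second array A probe set, of the x_at type, gave 9.96, 9.22 and 9.69 in D1 to D3 and 8.64, 9.11 and 8.32 in U1 to U3. Here the groups did not overlap, and the difference was 0.93 ± 0.27 (limma adjusted p = 0.103), against -0.08 ± 0.14 for the brighter probe set. The suffix x_at marks probes that may also match other transcripts. The representing probe sets of Rrm2 and Fen1 carry it too. Array A probe sets without it gave -0.26 ± 0.22 and -0.00 ± 0.19 for Rrm2 and 0.21 ± 0.27 for Fen1.

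Among the other helicase genes, probe sets of the x_at type went both ways. For Mcm4, the x probe set gave 10.46, 9.69 and 9.96 against 9.50, 9.30 and 9.28, separate groups and a difference of 0.67 ± 0.22 (limma adjusted p = 0.141), where the brighter probe set gave 0.09 ± 0.14. The 5 probe sets of Mcm3 ran from 0.03 to 0.47, all above 0, with the x probe set the highest at 0.47 ± 0.15. Its groups did not overlap, and neither did those of a probe set without that suffix (0.44 ± 0.17). Another without it gave 0.37 ± 0.29. The brightest gave 0.07 ± 0.13 and the next brightest 0.03 ± 0.27. The x probe set of Mcm7, by contrast, gave 0.04 ± 0.26, below the 0.35 of its brightest probe set. On array B the x probe sets of Mcm5 and Mcm6 gave -0.02 ± 0.27 and -0.01 ± 0.75. For Mcm2, the dimmer probe set gave 11.40, 11.52 and 11.53 against 11.64, 11.49 and 11.57, overlapping, with a difference of -0.08 ± 0.12. Its standard error was smaller than that of the brighter Mcm2 probe set. For Rrm1 the 2 array A probe sets had opposite signs, 0.42 ± 0.15 and -0.22 ± 0.21. In 4 of these 23 array A genes (Mcm3, Mcm4, Mcm6 and Prim1) the gap between another probe set and the brightest separated the groups fully. A gene could have several such gaps, and the share over all genes was not computed. The count therefore only describes these arrays and is not a result about these genes.

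**Figure D4:**
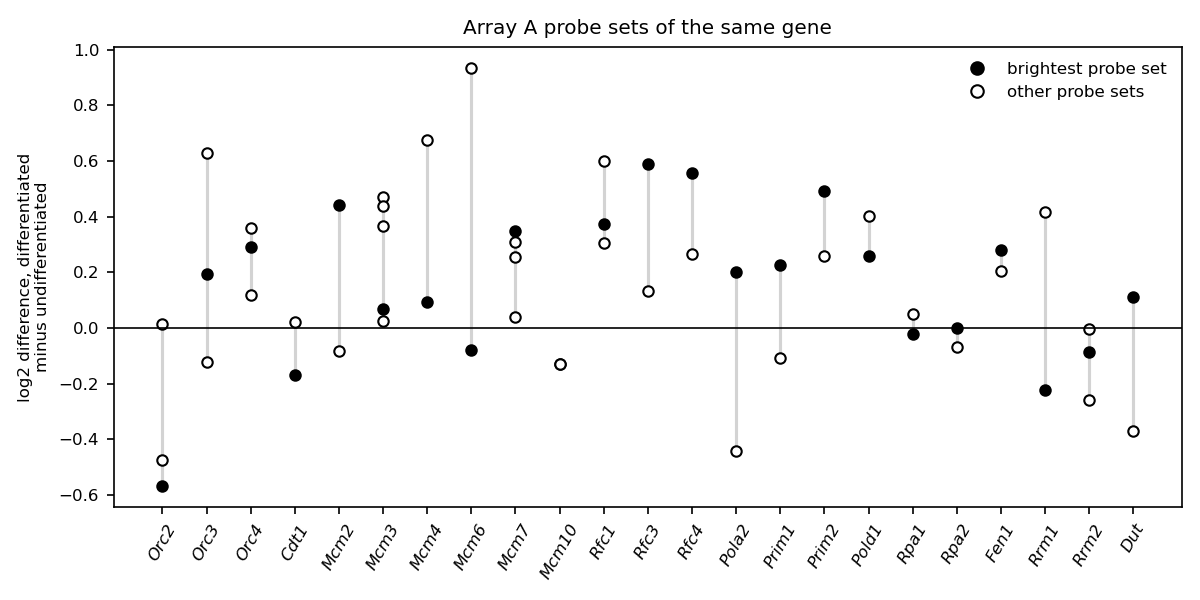
Log2 difference (differentiated minus undifferentiated) of every tested array A probe set, for the 23 genes with more than 1; filled points are the brightest probe set of each gene. The widest pair is that of Mcm6, at -0.08 and 0.93.

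Related genes outside the 46 were read for comparison, from lists that share no member with them. Of 28 other fork, origin and checkpoint genes, 0 passed limma's adjusted test and 3 had an unadjusted p under 0.05 (10.7%, against 12.6% of all genes), with a median of 0.06 and 17 above 0. Of 9 genes tested that deliver histones or copy DNA methylation at the fork, 0 passed and 3 had an unadjusted p under 0.05 (33.3%), with a median of 0.26 and 6 above 0. Of 28 other nucleotide synthesis genes tested, 1 rose and 0 fell, with a median of -0.20 and 21 below 0. An unadjusted p under 0.05 was found for 8 of them (28.6%), 5 lower and 3 higher. The gene that rose was Paics, an enzyme of purine synthesis, with 13.07, 13.51 and 13.28 in D1 to D3 and 12.71, 12.58 and 12.49 in U1 to U3. All differentiated arrays were higher, with a difference of 0.70 ± 0.14 (1.62-fold, limma adjusted p = 0.0229). In all, 1 of these 65 genes passed, against 2.08% of all genes.

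**Figure D5:**
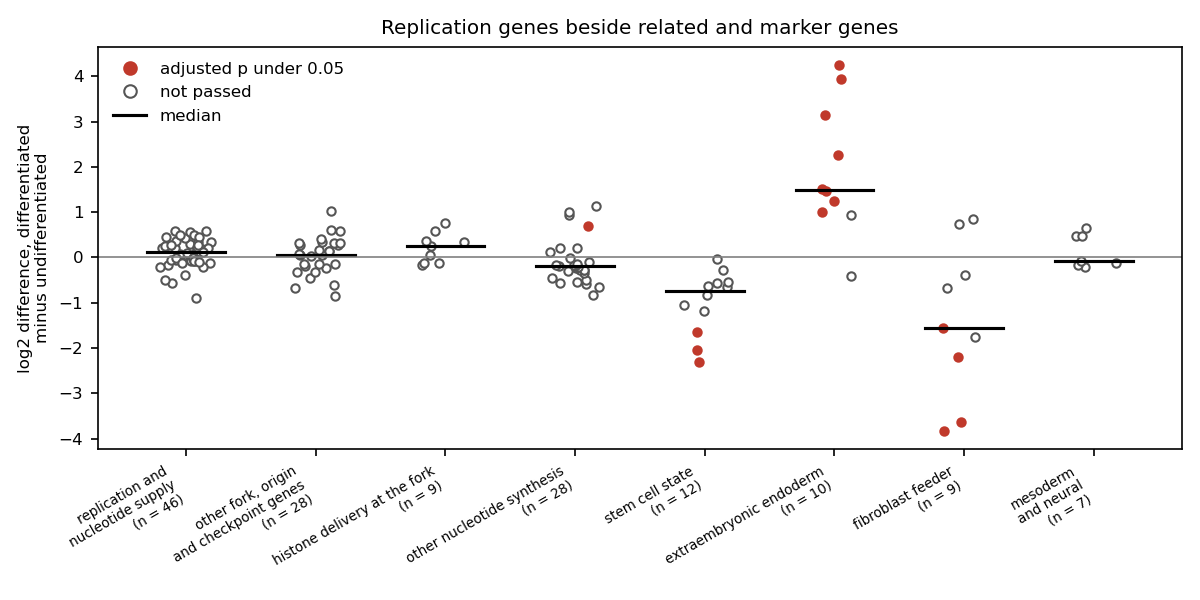
Log2 difference (differentiated minus undifferentiated) of each tested gene in the 46 replication genes, 3 related lists and 4 marker lists; filled red points have a limma adjusted p under 0.05 and black lines are medians. The replication medians lie near 0 (0.12 for the 46 genes), while the endoderm and feeder medians are 1.49 and -1.57.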

How the data were processed

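The deposited values are signal intensities on a linear scale made by the authors with MAS5, per the submitters' processing notes. MAS5's version and scaling target are not given in the sources that were used. Each array was rescaled to a trimmed mean of 500 (2% trimmed each side), floored at 32 and put on the log2 scale. Control probe sets and those with a mean log2 signal under 6 were left out. Each array type was fitted separately with limma 3.58.1 in R 4.3.3 (intensity trend, two-sided), with Benjamini-Hochberg adjustment over all probe sets of the array type, and 0.05 was the threshold. Each gene took its brightest single-symbol probe set, array A before array B. The fit was tested on simulated data. The precision is limited by 3 arrays per group. After scaling, a change in the total RNA of a cell cannot be seen.

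Members and lists were chosen with earlier results of these data known. Values of every array are given for the members with the largest and the smallest absolute difference of each role and for Pcna, Mcm2, Rrm2, Tyms, Tk1 and Top2a. Arrays of other members, and second probe sets, were picked with their values in view. The table columns used number 12, 1 per array, and 0 columns were left unused. Promoters came from RefSeq (GRCm38.p6). Alternatives covered scaling, floor, filter, trend, adjustment, array lot or station, a replicate block, each RNA left out and the choice of probe set. Same-numbered RNAs were not treated as pairs.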

Additional observations from a re-analysis of the deposited data

Results flagged for a closer look

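The bacterial hybridisation controls, added to each sample and outside every comparison above, were brighter on the D1 array A than on any undifferentiated array A, by 0.71 on the log2 scale over the highest of them. They were at 14.25 on D1, while D2 (13.30) and D3 (13.26) lay within the undifferentiated range of 12.88 to 13.54. On array B the brightest was U2 (15.41), ahead of D1 (15.00). The part of the state of the D1 array A in the values of the replication genes was not tested, and the values without D1 are given above.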

How the results depend on the processing

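Under all 17 alternatives 0 of the 46 genes passed (45 with a minimum log2 signal of 7, which leaves out Tyms). The lowest adjusted p was 0.0594 (Mcm7, floor of 64). The median of the 46 stayed within 0.0846 to 0.162, except with the second brightest probe set (0.0377). Leaving out the filter, a minimum of 7, no trend, adjustment over both arrays and the replicate block cannot change a log2 difference. Under the others, 24 values of named genes changed direction. Those outside the fits that leave out an RNA were Orc6 (-0.0063) with median centring, Rpa2 (0.0109) with quantile normalization, Mcm2 (-0.26), Mcm3 (-0.0326), Rpa2 (0.0762) and Tyms (0.71) with the lot or station block, and Orc2 (0.0151), Mcm2 (-0.0844) and Rfc2 (0.88) with the second brightest probe set. Leaving out an RNA gave a range of -0.0692 to 0.16 for Orc6, -0.18 to 0.0589 for Gins1, -0.13 to 0.0275 for Rfc2, -0.0559 to 0.065 for Rpa2, -0.22 to 0.0143 for Rrm2, -0.16 to 0.0365 for Pole2, -0.22 to 0.0011 for Tk1, -0.20 to 0.0439 for Top2a and -0.0155 to 0.12 for Mcm3. The cause was not tested. Over all genes, array A and array B, the calls were 209, 307 and 2 with median centring, 129, 194 and 0 with the floor of 64, 120, 194 and 1 without the filter, 56, 97 and 0 without the trend, 212, 319 and 10 with adjustment over both arrays, and 76, 106 and 0 with the lot or station block. Leaving out each RNA gave 129 to 326, 190 to 497 and 0 to 2. Same-numbered RNAs correlated at 0.01 to 0.16 on array A and 0.10 to 0.18 on array B. These values, from few RNAs per group, cannot decide whether the numbers pair the samples. With the replicate block 466 genes, 724 probe sets of array A and 1 of array B were called, and 0 of the 46, whose median was 0.12. On array A only the RNAs numbered 1 correlated best with each other, and on array B all did.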

Other observations

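In 13 of the 28 other nucleotide synthesis genes (46.4%) the groups did not overlap, 9 lower and 4 higher in differentiated cells, against 18.4% of all genes. The genes named next were chosen after their values were seen, and none passed. Aprt, which salvages adenine, had log2 signals of 11.66, 11.96 and 12.21 in D1 to D3 and of 12.62, 12.54 and 12.44 in U1 to U3 (difference -0.59 ± 0.15, limma adjusted p = 0.0638). Gart, an enzyme of purine synthesis like Paics, gave 10.79, 11.32 and 11.09 against 11.89, 11.44 and 11.57 (-0.57 ± 0.17, adjusted p = 0.12). In the histone delivery list, 5 of 9 genes (55.6%) had separate groups, all of them higher. Uhrf1, which guides maintenance DNA methylation, gave 10.44, 10.43 and 10.30 against 9.50, 10.00 and 9.40 (0.76 ± 0.19, adjusted p = 0.0595). Slbp, which binds the stem-loop of histone mRNAs, gave 10.44, 10.65 and 10.87 against 10.13, 9.97 and 10.07 (0.59 ± 0.16, adjusted p = 0.077).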
